A study of Mus musculus with 8 samples.

Results

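The genes described here are 10 feedback and output genes of the MAP kinase pathway, taken by name: the dual-specificity phosphatases Dusp1, Dusp4, Dusp5 and Dusp6, the Sprouty and Spred genes Spry1, Spry2, Spry4 and Spred1, and the ETS factors Etv4 and Etv5. All 10 were among the 12160 genes of the count table, and all 10 passed the filter on low counts in each comparison. They were measured in immortalized mouse pancreatic stellate cells (PSCs), the fibroblast-like cells of the pancreas, grown in Matrigel domes. After 4 days in growth medium, the cells spent 4 days in medium taken from KPC pancreatic cancer organoids, in which Brca2 was silenced by shRNA (shBrca2-CM, 3 libraries) or which carried a nontargeting shRNA (shControl-CM, 3 libraries), or in control medium (2 libraries). Brca2 was silenced in the organoids, not in the PSCs. The sample titles, the study's results and its account of differential expression name the control DMEM or growth medium, whereas the recorded treatment and the culture methods name medium that PSCs had conditioned themselves, so what the control cells received is not certain. Organoid medium was collected, per the methods, with less serum than growth medium holds, so effects of serum and of organoid products cannot be told apart in a comparison with control medium. The comparison between the conditioned media asks what silencing Brca2 in the cancer cells changed for the PSCs, and each comparison with control medium asks what cancer conditioned medium changed at all. The study's methods do not say how many organoid lines or batches of medium stood behind these libraries. An effect of silencing Brca2 therefore cannot be told apart from differences between lines, shRNAs or batches. Both comparisons with control medium used the same 2 control libraries and are not independent of each other.

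Growth factors such as FGF, EGF and PDGF bind receptor tyrosine kinases, which load RAS with GTP and so start the RAF, MEK and ERK kinase cascade. ERK enters the nucleus and activates transcription, and among the genes it switches on are its own brakes. Dual-specificity phosphatases remove the activating phosphates of ERK, p38 and JNK. Sprouty and Spred proteins hold the signal back upstream, between the receptor and RAF. Etv4 and Etv5, of the PEA3 group of ETS factors, are made in response to FGF and ERK signals and carry the response on. RNA of these genes is therefore often read as a measure of ERK pathway output, although RNA shows neither kinase activity nor protein.

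Counts on genes summed to 655996 to 1095534 with shBrca2-CM, to 1093609 to 1624392 with shControl-CM and to 4623846 and 5476988 in control medium. Values are given as CPM, counts scaled to library size, with library totals adjusted by TMM, so that a floor of 3 counts was 4.34 CPM where depth was lowest and 0.521 CPM where it was highest. Several members lay near this floor in the conditioned medium libraries. Counting intervals and floors cover counting error only. The chi-square per degree of freedom over genes was 1.65 to 1.94 between pairs of shBrca2-CM libraries, 2.99, 8.35 and 4.21 between shControl-CM replicates 1 and 2, 1 and 3, and 2 and 3, and 6.64 between the control libraries, a measure that also grows with depth. All 10 fibroblast and stellate cell markers were in the table, and their summed level was 3120 to 3291 CPM with shBrca2-CM, 3912 to 4524 CPM with shControl-CM and 5428 to 6489 CPM in control medium. The order depended on Vim: without it the other 9 markers summed to 2532 to 2855 CPM, 3669 to 4146 CPM and 2032 to 2374 CPM. This second order depended in turn on Dcn, which alone averaged 1086, 2107 and 92.4 CPM in the same order of groups. Against control medium, 3 of the 10 were called higher and 4 lower with shControl-CM (18.4% and 19.5% of all genes), and 4 higher and 4 lower with shBrca2-CM (19.1% and 19.8%). Between the conditioned media, 1 of the 10 was called higher and 2 lower with shBrca2-CM (1.59% and 1.55% of all genes). Of 6 epithelial markers, Epcam, Cdh1, Krt7 and Krt8 were not in the table used here, and Krt18 and Krt19 together gave 21.7 to 31.1 CPM with shBrca2-CM, 7.69 to 21.1 CPM with shControl-CM and 26.6 to 27.5 CPM in control medium. These went opposite ways: Krt18 averaged 14.4, 12.2 and 2.20 CPM in that order of groups, and Krt19 11.8, 2.82 and 24.8 CPM. Of 5 immune markers, Ptprc, Adgre1 and Cd3e were not in the table, and Cd68 and Lyz2 together gave 13.0 to 23.1, 16.7 to 22.4 and 7.52 to 9.04 CPM in the same order. Of 4 endothelial markers, Pecam1 and Cdh5 were not in the table, and Kdr and Tek together stayed at or below 3.48 CPM. The part of these shifts in the results was not tested. In bulk RNA, fewer expressing cells and less RNA per cell cannot be told apart.

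RefSeq promoter windows on GRCm38.p6, the build of the mm10 genome named in the submitters' processing notes, were found for 7 of the 10 genes: Dusp1, Dusp5, Dusp6, Spry1, Spry2, Spred1 and Etv5. The 250 bases before the start site are printed for Dusp6 and Etv5, called higher in both conditioned media, and for Spry1 and Dusp1. Spry1 was called lower in both conditioned media, and Dusp1 with shBrca2-CM only. Capitals mark matches, on either strand, to TGACGTCA (the cAMP response element), to its core TGACG, to CCGGAA (an ETS site) or to TGAGTCA (an AP-1 site).
Dusp6, chr10:99262981-99263230, plus strand: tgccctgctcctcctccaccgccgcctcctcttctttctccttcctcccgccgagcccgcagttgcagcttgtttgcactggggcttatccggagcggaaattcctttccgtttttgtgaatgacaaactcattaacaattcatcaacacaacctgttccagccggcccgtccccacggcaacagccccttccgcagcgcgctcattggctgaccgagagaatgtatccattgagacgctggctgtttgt
Etv5, chr16:22439571-22439820, minus strand, the first of its start sites: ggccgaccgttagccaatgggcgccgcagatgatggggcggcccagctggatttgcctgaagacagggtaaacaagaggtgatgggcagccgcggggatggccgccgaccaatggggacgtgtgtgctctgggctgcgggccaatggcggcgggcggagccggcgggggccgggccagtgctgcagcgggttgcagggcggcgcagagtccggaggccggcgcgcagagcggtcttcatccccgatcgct
Spry1, chr3:37639697-37639946, plus strand: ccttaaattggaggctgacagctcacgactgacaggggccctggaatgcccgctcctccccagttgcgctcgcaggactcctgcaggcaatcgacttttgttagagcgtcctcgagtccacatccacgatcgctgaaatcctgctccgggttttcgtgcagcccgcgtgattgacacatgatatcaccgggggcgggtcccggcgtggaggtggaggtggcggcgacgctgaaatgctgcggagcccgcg
Dusp1, chr17:26508473-26508722, minus strand: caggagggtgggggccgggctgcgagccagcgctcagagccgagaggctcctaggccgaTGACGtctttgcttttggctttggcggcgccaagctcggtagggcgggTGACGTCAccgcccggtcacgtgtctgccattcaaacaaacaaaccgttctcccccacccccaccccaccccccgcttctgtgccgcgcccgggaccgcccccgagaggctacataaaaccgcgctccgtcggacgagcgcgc
The Dusp1 window alone among the 7 held the full cAMP response element, with its first base at -143 from the start site, and a further core match began at -191. Of all 32851 windows of this length, 1.55% held the full element and 17.8% the core, which the full element contains. The core was also found in the Dusp5 window. CCGGAA occurred in 12.0% of all windows and TGAGTCA in 4.46%, and in none of the 7 windows searched. Only these exact sequences were searched, so the windows may hold other forms of ETS or AP-1 sites. GGGCGG, the GC box, was in 5 of the 7 windows and in 32.7% of all windows; it is not marked by capitals. Matches describe letters only, and no binding was measured here.

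Both ETS factors were higher in conditioned medium of either kind than in control medium, with every conditioned library above both controls. Etv4 (chr11:101769747-101785310) measured 168, 148 and 141 CPM with shBrca2-CM, 131, 123 and 144 CPM with shControl-CM, and 66.9 and 66.0 CPM in control medium. The counts behind these values were 116 to 212 per conditioned medium library and 307 and 385 per control library, so that Etv4 was the best counted member in every library. The mean rose 2.29-fold with shBrca2-CM, a log2 fold change of 1.19 ± 0.16 (SE; edgeR quasi-likelihood test, Benjamini-Hochberg adjusted p = 7.98e-09), and 1.99-fold with shControl-CM, a log2 fold change of 0.99 ± 0.17 (edgeR adjusted p = 0.00177). Etv5 (chr16:22381313-22439570), the close relative of Etv4, measured 47.7, 53.5 and 53.3 CPM with shBrca2-CM, 39.1, 62.8 and 44.1 CPM with shControl-CM, and 17.6 and 21.5 CPM in control medium. The shControl-CM libraries spread more than those of shBrca2-CM, and the lowest of them was still above the higher control. The log2 fold change was 1.41 ± 0.21 with shBrca2-CM (2.64-fold; edgeR adjusted p = 2.11e-07) and 1.30 ± 0.27 with shControl-CM (2.49-fold; edgeR adjusted p = 0.00533). Both genes were called higher in both comparisons whichever single library was left out. The control group, with an SD of 0.648 CPM for Etv4, was 2 domes only.

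**Figure D1:**
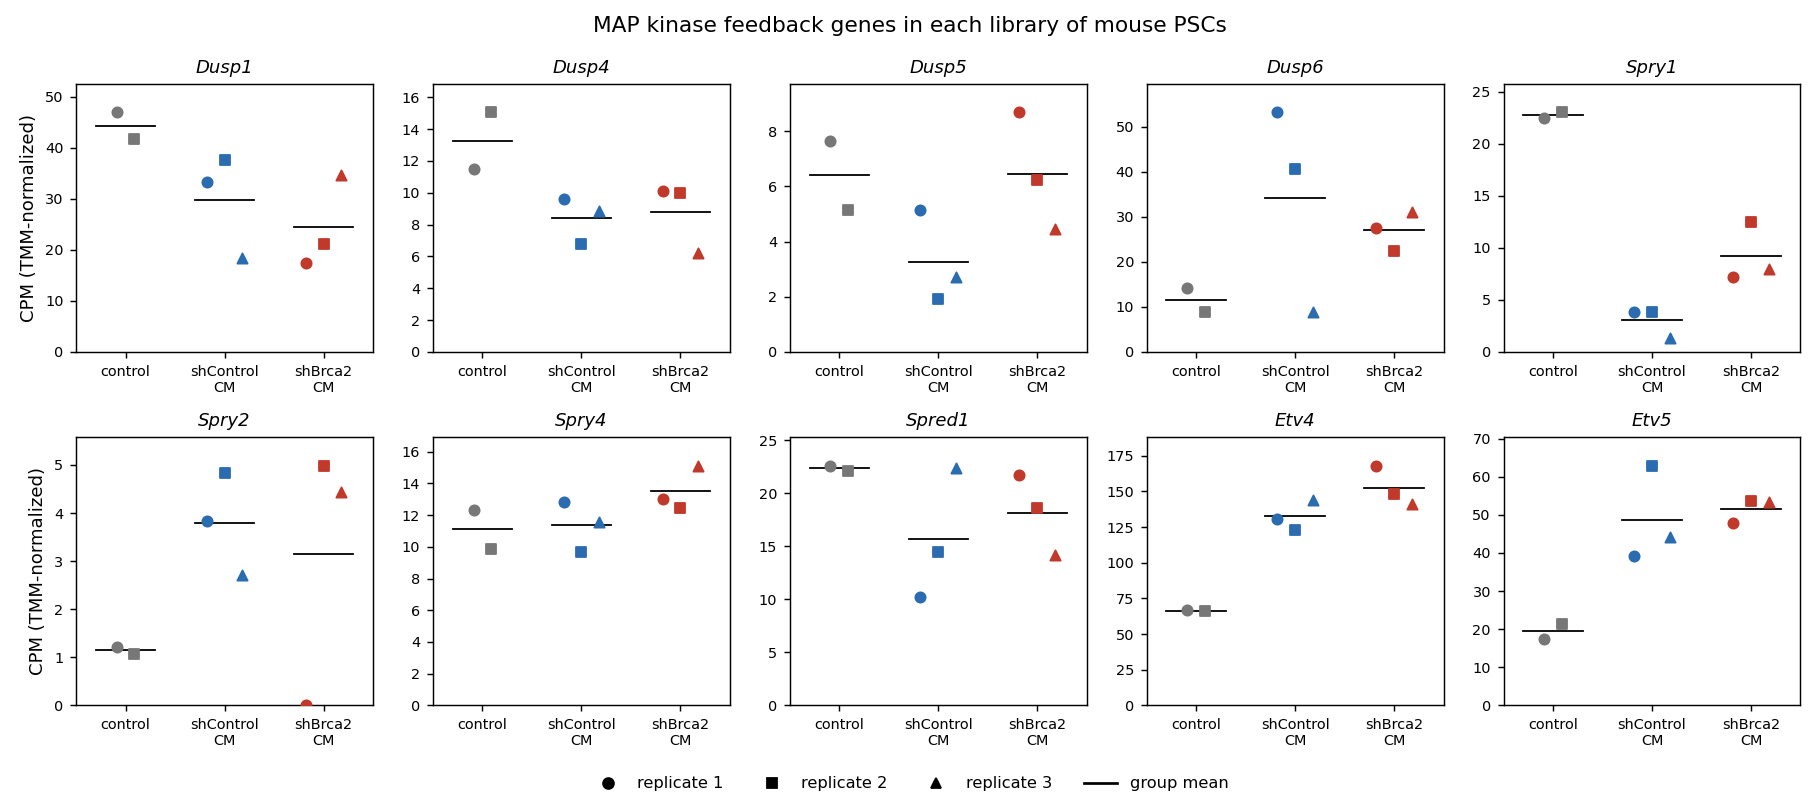
CPM of each of the 10 genes (vertical axis from 0, own scale per gene) in control medium, shControl-CM and shBrca2-CM. Each point is 1 library, its shape gives the replicate number, and the line is the group mean; Etv4 and Etv5 lie higher and Spry1 lies lower in all 6 conditioned medium libraries than in both controls, while Dusp6 in shControl-CM spans 8.83 to 53.2 CPM.

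The 4 phosphatases did not move together. Dusp6 (chr10:99263231-99267489), which acts on ERK in the cytoplasm, was higher in conditioned medium, Dusp1, which acts on p38, JNK and ERK, was lower with shBrca2-CM, and Dusp4 and Dusp5, both nuclear, were called in neither direction. Dusp6 measured 27.5, 22.4 and 31.1 CPM with shBrca2-CM, and 14.3 and 8.81 CPM in control medium. These groups did not overlap, and the mean was 2.34-fold higher, a log2 fold change of 1.22 ± 0.28 (edgeR adjusted p = 0.00026), a call held without any single library. With shControl-CM, the 3 libraries measured 53.2, 40.6 and 8.83 CPM. Replicates 1 and 2 had the highest Dusp6 of the series, and replicate 3, with 13 counts and a 95% Poisson interval of 4.70 to 15.1 CPM, lay within the control range. The SD of this group was 22.9 CPM around a mean of 34.2 CPM. Its log2 fold change against control medium, 1.54 ± 0.56, passed the test (edgeR adjusted p = 0.0567) but the call rested on single libraries. Without shControl-CM replicate 3 the log2 fold change was 2.02 (edgeR adjusted p = 1.29e-06). The call was lost without shControl-CM replicate 1 (0.98, edgeR adjusted p = 0.102) or replicate 2 (1.42, edgeR adjusted p = 0.177), and without control replicate 1 (1.96, edgeR adjusted p = 0.19) or replicate 2 (1.25, edgeR adjusted p = 0.341). In libraries thinned to the smallest total it was also lost (1.21, edgeR adjusted p = 0.125).

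Dusp1 (chr17:26505591-26508472) measured 17.4, 21.2 and 34.6 CPM with shBrca2-CM, 33.3, 37.7 and 18.3 CPM with shControl-CM, and 46.9 and 41.7 CPM in control medium. All conditioned libraries lay below both controls, and the highest was 1.99-fold the lowest with shBrca2-CM and 2.06-fold with shControl-CM. The log2 fold change was -0.79 ± 0.23 with shBrca2-CM (1.82-fold lower; edgeR adjusted p = 0.0041). This call was lost in thinned libraries, where the log2 fold change was -0.66 (edgeR adjusted p = 0.109). With shControl-CM the log2 fold change was -0.60 ± 0.29 and missed the threshold (edgeR adjusted p = 0.134), but passed it without shControl-CM replicate 1 (-0.72, edgeR adjusted p = 0.0562) or when libraries were scaled by total counts (-0.71, edgeR adjusted p = 0.0978). Dusp4 (chr8:34807610-34819894) measured 6.21 to 10.1 CPM with shBrca2-CM, 6.76 to 9.61 CPM with shControl-CM, and 11.5 and 15.0 CPM in control medium, from 7 to 15 counts per conditioned library. The conditioned libraries again lay below both controls, with log2 fold changes of -0.64 ± 0.36 with shBrca2-CM (edgeR adjusted p = 0.153) and -0.63 ± 0.32 with shControl-CM (edgeR adjusted p = 0.16). Without control replicate 1, the first of these passed the test (-0.83, edgeR adjusted p = 0.0877). Dusp5 (chr19:53529145-53541809) rested on 2 to 8 counts per conditioned library and measured 4.44 to 8.68 CPM with shBrca2-CM, 1.93 to 5.13 CPM with shControl-CM, and 7.65 and 5.16 CPM in control medium. Its log2 fold change was -0.08 ± 0.44 with shBrca2-CM (edgeR adjusted p = 0.913) and -0.92 ± 0.48 with shControl-CM (edgeR adjusted p = 0.169), and the latter passed only without shControl-CM replicate 1 (-1.42, edgeR adjusted p = 0.0752).

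Among the Sprouty and Spred genes, Spry1 fell in both conditioned media, Spry2 was called higher with shControl-CM, and Spry4 and Spred1 were called in neither medium. Spry1 (chr3:37639947-37644599), an inhibitor of receptor tyrosine kinase signalling, measured 22.4 and 23.0 CPM in control medium, from 129 and 107 counts. With shControl-CM it measured 3.84, 3.87 and 1.36 CPM, from 6, 4 and 2 counts, and with shBrca2-CM 7.23, 12.4 and 7.99 CPM, from 5, 10 and 9 counts. The 3 groups did not overlap, and their order was control medium, shBrca2-CM, shControl-CM. Against control medium the mean was 7.51-fold lower with shControl-CM, a log2 fold change of -2.93 ± 0.39 (edgeR adjusted p = 0.000504), and 2.46-fold lower with shBrca2-CM, a log2 fold change of -1.30 ± 0.31 (edgeR adjusted p = 0.000591). The second call was lost in thinned libraries (-0.84, edgeR adjusted p = 0.174).

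Spry2 (chr14:105891947-105896819), a relative of Spry1 that also binds RAF and CBL, measured 1.22 and 1.07 CPM in control medium, from 7 and 5 counts. With shControl-CM it measured 3.84, 4.83 and 2.72 CPM, from 6, 5 and 4 counts, above both controls. With shBrca2-CM it measured 4.98 and 4.44 CPM in replicates 2 and 3 and had 0 counts in replicate 1, which allows up to 4.34 CPM there. The log2 fold change of 1.64 ± 0.57 with shControl-CM passed the test (edgeR adjusted p = 0.0513), but not by DESeq2's likelihood ratio test (adjusted p = 0.188), nor in edgeR without shControl-CM replicate 2 (1.48, adjusted p = 0.147), control replicate 1 (1.75, adjusted p = 0.201) or control replicate 2 (1.56, adjusted p = 0.214). With shBrca2-CM the log2 fold change was 1.53 ± 0.77 (edgeR adjusted p = 0.11), and 1.98 without the library at 0 (edgeR adjusted p = 0.0419). At 4 to 6 counts per conditioned library above 0, the size of the Spry2 difference was poorly resolved. Spry4 measured 12.4 to 15.1 CPM with shBrca2-CM, 9.66 to 12.8 CPM with shControl-CM, and 12.3 and 9.89 CPM in control medium. Its log2 fold change was 0.29 with shBrca2-CM (95% interval -0.35 to 0.94) and 0.03 with shControl-CM (95% interval -0.65 to 0.72). Spred1 (chr2:117121071-117182279), which holds RAS signalling back through neurofibromin, measured 14.2 to 21.7 CPM with shBrca2-CM, 10.3 to 22.4 CPM with shControl-CM, and 22.6 and 22.1 CPM in control medium. Its log2 fold change was -0.34 ± 0.27 with shBrca2-CM (edgeR adjusted p = 0.335) and -0.51 ± 0.32 with shControl-CM (edgeR adjusted p = 0.246), and -0.89 without shControl-CM replicate 3, where it passed the test (edgeR adjusted p = 0.032).

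Counted together, 4 members were called higher with shControl-CM than in control medium (Dusp6, Spry2, Etv4 and Etv5) and 1 lower (Spry1), where 18.4% of all 12086 genes tested were called higher and 19.5% lower. With shBrca2-CM, 3 were higher (Dusp6, Etv4 and Etv5) and 2 lower (Dusp1 and Spry1), against 19.1% and 19.8% of all 12049 genes tested. The libraries did not overlap, with conditioned medium higher, for 3 members with shControl-CM and 4 with shBrca2-CM, where the shares of all genes were 26.8% and 26.1%. They did not overlap with conditioned medium lower for 4 members in each comparison, where the shares of all genes were 33.1% and 31.3%. The median log2 fold change of the members was -0.24 with shControl-CM and 0.11 with shBrca2-CM, beside -0.10 and -0.05 over all genes tested. In each comparison 5 of the 10 members were called in some direction, where 37.8% and 38.8% of all genes were, and the list itself was not tested.

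**Figure D2:**
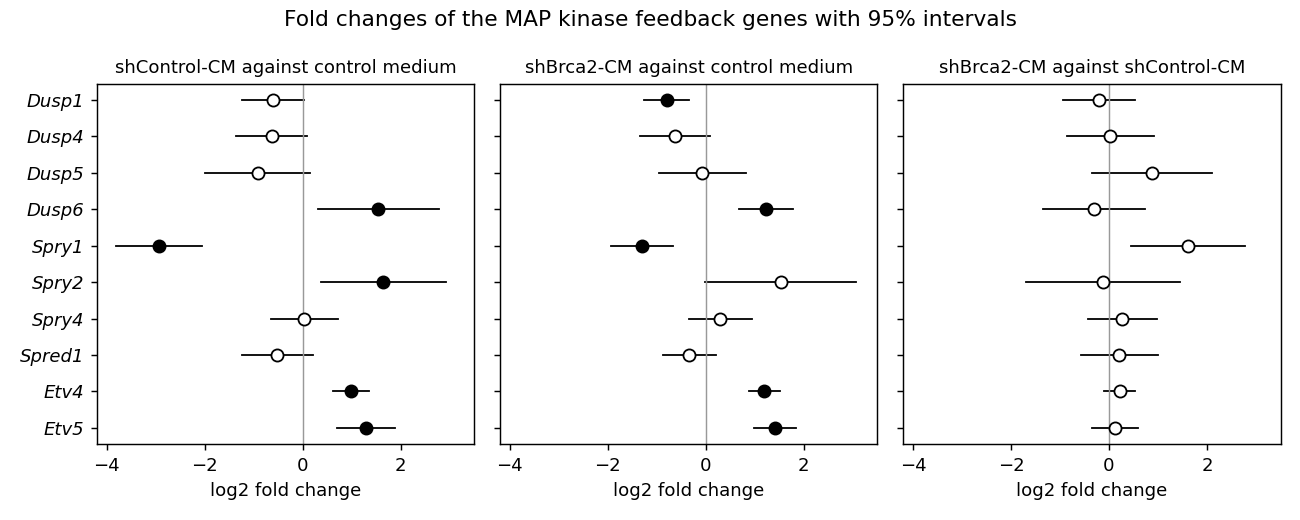
Log2 fold changes (horizontal axis) of the 10 genes in the 3 comparisons, with 95% intervals from the edgeR fits. Filled points were called; against control medium Etv4, Etv5 and Dusp6 are filled to the right and Spry1 to the left for both conditioned media, and none is filled between the conditioned media.

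Between shBrca2-CM and shControl-CM, 0 of the 10 members were called by edgeR or by DESeq2, and 1, Spry1, had an edgeR p under 0.05 before adjustment. DESeq2 gave no adjusted p for Spry1. Of all 11035 genes tested, 1.59% were called higher and 1.55% lower with shBrca2-CM, which was 175 and 171 genes (252 and 120 when libraries were scaled by total counts). Spry1 was 3.05-fold higher with shBrca2-CM, a log2 fold change of 1.62 ± 0.53 with a 95% interval of 0.46 to 2.78 (edgeR adjusted p = 0.184). It was the member whose groups did not overlap, where 9.14% of all genes did not overlap with shBrca2-CM higher and 10.6% with shBrca2-CM lower. The values rested on 2 to 10 counts per library, and the call was made in the fit without shControl-CM replicate 1 (1.87, edgeR adjusted p = 0.089). For Etv4 and Etv5 the differences were small and comparatively well bounded, with log2 fold changes of 0.22 (95% interval -0.09 to 0.53) and 0.13 (-0.34 to 0.60). Dusp6 gave -0.30 (-1.35 to 0.74) in an interval wide in both directions. Without shControl-CM replicate 3 its log2 fold change was -0.78 (edgeR adjusted p = 0.104), and without replicate 1 it was 0.23. Dusp5 gave 0.88 (-0.35 to 2.11), Spry4 0.27 (-0.44 to 0.98), Spred1 0.21 (-0.57 to 0.99), Dusp4 0.03 (-0.86 to 0.92), Spry2 -0.12 (-1.69 to 1.46) and Dusp1 -0.21 (-0.95 to 0.53). The median over the members was 0.17, beside 0.03 over all genes.

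The rest of the pathway was read from 9 lists of 79 genes, of which 75 were in the table. Of 74 tested against control medium, 20 were called higher and 14 lower with shControl-CM, and 20 higher and 15 lower with shBrca2-CM. Over all genes 18.4% were called higher and 19.5% lower with shControl-CM, and 19.1% and 19.8% with shBrca2-CM. The median log2 fold change over the lists was 0.10 with shControl-CM and -0.01 with shBrca2-CM. Of 69 tested between the conditioned media, 2 were higher and 3 lower with shBrca2-CM, with a median of -0.05, where 1.59% and 1.55% of all genes were called and their median was 0.03. The lists were described by these counts and not tested as sets.

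Beside the members, the other brakes moved both ways. Among all genes, 18.4% were called higher and 19.5% lower with shControl-CM than in control medium, and 19.1% and 19.8% with shBrca2-CM. Of 5 further MAP kinase phosphatases tested, Dusp16 was called higher and Dusp9 and Dusp10 lower in both conditioned media, and Dusp8 was called lower with shBrca2-CM, where it had at most 3 counts per library, a call lost without shBrca2-CM replicate 3 (-0.79) or control replicate 2 (-0.88). Dusp9, an ERK phosphatase, measured 16.1, 12.0 and 33.1 CPM on average with shBrca2-CM, shControl-CM and control medium, a log2 fold change of -1.04 (edgeR adjusted p = 0.000856) and -1.45 (edgeR adjusted p = 0.00879), the latter lost without control replicate 2 (-1.30, edgeR adjusted p = 0.117). Dusp16, which acts on JNK, rose by 0.85 on the log2 scale in each (edgeR adjusted p = 0.0121 and 0.042). Its call was lost with shBrca2-CM without replicate 3 of that group (0.72), and with shControl-CM without replicate 2 of that group (0.80), control replicate 1 (0.87) or control replicate 2 (0.86). Dusp10, which acts on p38 and JNK, averaged 2.60 CPM with shBrca2-CM and 4.67 CPM with shControl-CM against 9.79 CPM in control medium (log2 fold changes -1.67 and -1.13, edgeR adjusted p = 0.00594 and 0.0538). With shControl-CM that call was lost without replicate 1 (-1.01) or 3 (-0.94) of that group or control replicate 1 (-1.20) or 2 (edgeR adjusted p = 0.275). Spred3, of the same family as Spred1, rose from 17.0 CPM to 68.1 CPM with shBrca2-CM and 68.8 CPM with shControl-CM, log2 fold changes of 2.05 (edgeR adjusted p = 1.3e-11) and 2.01 (edgeR adjusted p = 0.000222). Its conditioned libraries, at 50.6 to 91.4 CPM, lay above both control libraries. Spred2 was not called. Of 6 further ETS factors, Erf, a repressor that ERK inactivates, and Elk3 were called higher and Ets1 lower in both media. Ets1 measured 42.2 and 33.7 CPM in control medium and fell to means of 16.2 CPM with shBrca2-CM (log2 fold change -1.27, edgeR adjusted p = 5.89e-05) and 14.7 CPM with shControl-CM (-1.36, edgeR adjusted p = 0.00839, and -1.17, adjusted p = 0.131, without control replicate 1). Erf averaged 151 CPM with shBrca2-CM and 185 CPM with shControl-CM, log2 fold changes of 0.59 and 0.88 (edgeR adjusted p = 0.00163 and 0.00469), and Elk3 averaged 70.2 and 92.0 CPM, log2 fold changes of 0.52 and 0.89 (edgeR adjusted p = 0.0158 and 0.00424). With shBrca2-CM Elk3 was at 0.50 and 0.48 without replicate 1 or 3 of that group, no longer over the threshold of fold change. Etv1, the other PEA3 factor beside Etv4 and Etv5, was called higher with shBrca2-CM (2.57, edgeR adjusted p = 0.00226), but from 3 to 6 counts per shBrca2-CM library.

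**Figure D3:**
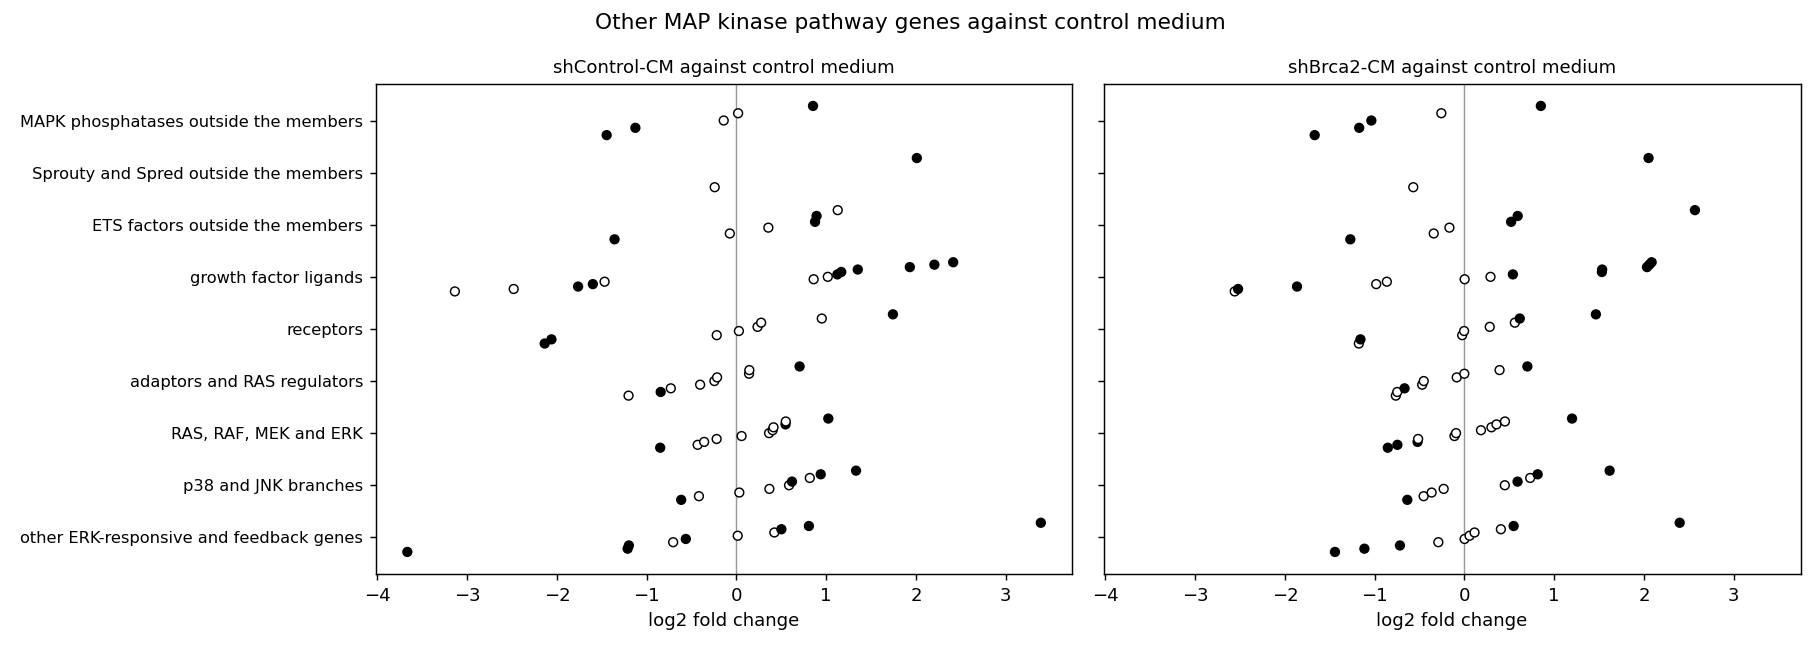
Log2 fold changes against control medium (horizontal axis) of the genes in the 9 pathway lists, 1 point per gene, filled where called; genes with 0 counts in every library of a group are left out. Filled points stand on both sides of 0 in every list except Sprouty and Spred, and with shControl-CM the outermost filled points are Ier3 at 3.39 and Ccnd1 at -3.67.

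Upstream of the feedback genes, growth factor ligands that the PSCs transcribed changed in both directions. Of 13 tested, 6 were called higher and 2 lower in each conditioned medium, with a median log2 fold change of 1.02 with shControl-CM and 0.29 with shBrca2-CM. Of all genes, 18.4% to 19.1% were called higher and 19.5% to 19.8% lower. With total counts 4 ligands, not 6, were called higher with shControl-CM. Fgf1 rose from 4.41 CPM to 24.1 CPM with shControl-CM (log2 fold change 2.42, edgeR adjusted p = 0.000387) and to 18.3 CPM with shBrca2-CM (2.09, edgeR adjusted p = 1.45e-06). With shControl-CM, Pdgfa rose by 1.17 on the log2 scale (edgeR adjusted p = 0.00386) and Hbegf, a ligand of EGF receptors, by 1.13 (edgeR adjusted p = 0.00548). Pdgfa averaged 45.4 CPM with shBrca2-CM and 44.5 CPM in control medium (edgeR adjusted p = 0.996). The EGF receptor ligand Areg rose by 2.21 (edgeR adjusted p = 0.00875) and 2.06 (edgeR adjusted p = 3.99e-05) in the same order, and Ereg, another such ligand, by 1.93 (edgeR adjusted p = 0.07) and 2.03 (edgeR adjusted p = 1.35e-06), its shControl-CM libraries overlapping the controls. With shControl-CM the Areg call was lost without control replicate 1 (2.06, edgeR adjusted p = 0.129). The Ereg call there rested on shControl-CM replicate 1, without which the log2 fold change was 0.21 (edgeR adjusted p = 0.776), and was also lost without control replicate 1 (2.07) or 2 (1.78) and with total counts (1.83, edgeR adjusted p = 0.103). The ligands called lower in both media were Nrg1, which binds ERBB receptors (-1.60 with shControl-CM and -2.52 with shBrca2-CM, edgeR adjusted p = 0.0247 and 0.000483), and Pdgfb (-1.76 and -1.87, edgeR adjusted p = 0.0453 and 0.00465). With shControl-CM the Nrg1 call was lost without control replicate 1 (-1.74) or 2 (-1.42), and the Pdgfb call without shControl-CM replicate 2 (-1.46) or control replicate 2 (-1.11), and the latter also with shBrca2-CM without control replicate 2 (edgeR adjusted p = 0.111). Among the 8 receptors, Egfr was called higher in both media, at 35.7 CPM with shControl-CM and 29.1 CPM with shBrca2-CM against 10.5 CPM in control medium (log2 fold changes 1.74 and 1.46, edgeR adjusted p = 0.00137 and 1.2e-05), and Met, the HGF receptor, was lower (-2.14 and -1.16, edgeR adjusted p = 0.00397 and 0.0194), with shBrca2-CM not without control replicate 2 (-0.88, edgeR adjusted p = 0.128). With shControl-CM Fgfr2 was also lower (-2.06, edgeR adjusted p = 0.0532), a call lost without shControl-CM replicate 2 (-1.64), control replicate 1 (-1.62) or control replicate 2 (-2.37). With shBrca2-CM Pdgfra was higher (0.62, edgeR adjusted p = 0.0046), and at 0.47, under the threshold, without shBrca2-CM replicate 2.

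Several calls among adaptor and cascade genes depended on single libraries. The shares of all genes called against control medium were 18.4% higher and 19.5% lower with shControl-CM, and 19.1% and 19.8% with shBrca2-CM. Of 9 adaptors and RAS regulators, 1 was called higher and 1 lower in each medium. Gab1, a docking protein, was higher by 0.70 in each (edgeR adjusted p = 0.0721 with shControl-CM and 0.0136 with shBrca2-CM). With shControl-CM its call was lost with total counts (0.59, edgeR adjusted p = 0.118) and without shControl-CM replicate 3 (0.55), control replicate 1 (0.52) or control replicate 2 (0.92), and with shBrca2-CM without control replicate 1 (0.49). Frs2, the FGF receptor adaptor, was lower (-0.84 and -0.67, edgeR adjusted p = 0.0355 with shControl-CM and 0.0421 with shBrca2-CM). Its call was lost with shControl-CM without replicate 2 of that group (-0.75), control replicate 1 (-0.88) or control replicate 2 (-0.80), and with shBrca2-CM without replicate 1 (-0.58) or 3 (-0.69) of that group or control replicate 2 (-0.61). Of 11 cascade genes, 2 were called higher and 1 lower with shControl-CM (0 and 1 with total counts), and 1 higher and 3 lower with shBrca2-CM. Hras was called higher with shControl-CM (0.55, edgeR adjusted p = 0.092), but not with total counts (0.44, edgeR adjusted p = 0.173), nor without shControl-CM replicate 1 (0.46) or 2 (0.51), control replicate 1 (0.37) or control replicate 2 (0.76). With shBrca2-CM Braf was higher (1.20, edgeR adjusted p = 0.0161; 0.87, adjusted p = 0.167, without shBrca2-CM replicate 1) and Araf lower (-0.52, edgeR adjusted p = 0.00947; -0.48 and -0.45, under the threshold, without shBrca2-CM replicate 2 or 3). Between the conditioned media themselves Hras, Braf and Araf were not called. Of 9 genes of the p38 and JNK branches, 3 were higher and 1 lower in each medium (2 and 1 with shControl-CM under total counts). By adjusted p the first was Mapkapk2, a kinase that p38 activates (log2 fold changes 0.94 with shControl-CM and 0.82 with shBrca2-CM, edgeR adjusted p = 0.00266 and 3.9e-06), while Mapk11, a p38 kinase, had larger log2 fold changes of 1.33 and 1.62 (edgeR adjusted p = 0.0688 and 0.0029). The Mapk11 call with shControl-CM was lost without shControl-CM replicate 1 (1.01, edgeR adjusted p = 0.179) and without control replicate 1 (edgeR adjusted p = 0.395) or 2 (1.65, edgeR adjusted p = 0.195). Map2k3, a kinase upstream of p38, was lower in both (-0.62 and -0.64, edgeR adjusted p = 0.0155 and 0.000744), with shControl-CM not without control replicate 1 (-0.59, edgeR adjusted p = 0.125).

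Other genes that ERK is known to induce changed in opposite directions. Of 11 tested against control medium, 3 were higher and 4 lower with shControl-CM, and 2 higher and 3 lower with shBrca2-CM. Over all genes 18.4% were called higher and 19.5% lower with shControl-CM, and 19.1% and 19.8% with shBrca2-CM. With total counts 2 of the 11, not 3, were called higher with shControl-CM. Ier3, an immediate early gene, averaged 306 CPM in control medium, 3225 CPM with shControl-CM and 1608 CPM with shBrca2-CM (log2 fold changes 3.39 and 2.40, edgeR adjusted p = 1.29e-06 and 3.58e-21). Ccnd1, cyclin D1, went the other way. It measured 164 and 201 CPM in control medium, 51.5 to 82.1 CPM with shBrca2-CM and 12.2 to 18.4 CPM with shControl-CM (log2 fold changes against control -1.44 and -3.67, edgeR adjusted p = 2.98e-10 and 3.3e-06). The 3 groups did not overlap for either gene. Myc fell in both media, by 1.21 with shControl-CM and by 1.11 with shBrca2-CM on the log2 scale (edgeR adjusted p = 0.00505 and 3.07e-05). Between the conditioned media, the 5 list genes called were Ccnd1, higher with shBrca2-CM by 2.25 (edgeR adjusted p = 0.000701), Ier3, lower (-0.98, edgeR adjusted p = 0.00144), the AP-1 subunit Fosl1, lower (-0.73, edgeR adjusted p = 0.0235), the ligand Pdgfa, lower (-1.14, edgeR adjusted p = 0.0216), and its receptor Pdgfra, higher (0.85, edgeR adjusted p = 0.0519). The calls of Ccnd1 and Ier3 held with any library left out. Those of Fosl1 and Pdgfra were lost without shBrca2-CM replicate 2 (-0.71 and 0.69), shBrca2-CM replicate 3 (-0.61 and 0.89) or shControl-CM replicate 2 (-0.73 and 0.81), and that of Pdgfa without shBrca2-CM replicate 2 (-1.06) or 3 (-1.04). Spry1 and Ccnd1 thus stood in the same order of groups, control medium, shBrca2-CM, shControl-CM, although for Spry1 the step between the conditioned media was not called. The epithelial marker Krt19 stood in this order too, at 24.3 and 25.4 CPM in control medium, 5.79 to 16.2 CPM with shBrca2-CM and 2.04 to 3.87 CPM with shControl-CM (2.12 between the conditioned media, edgeR adjusted p = 0.0632), and its part in these results was not tested.

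Genes were ranked by how closely their levels ran with Dusp6 over the 8 libraries. Among 6224 genes with a mean of at least 20 CPM, the highest Pearson correlations of log2 CPM were with Prdm2 (0.96), Mob3a (0.95) and Cxcl5 (0.95), given as a description, since the libraries share groups and depths. Being chosen for likeness over these same libraries, the genes had to share the low value of shControl-CM replicate 3, so that this is no separate finding. Cxcl5, a neutrophil chemokine, measured 72.4 and 61.8 CPM in shControl-CM replicates 1 and 2 and 6.11 CPM in replicate 3, beside 44.8 to 49.7 CPM with shBrca2-CM and 10.4 and 2.36 CPM in control medium. For Cxcl5 as for Dusp6, replicate 3 of shControl-CM lay in the control range and the other 5 conditioned libraries above it. The genes most like Etv4 were Mcm3ap, Lpcat1 and Gnb1 (0.99 each), whose conditioned libraries all lay above the controls: Gnb1 measured 103 to 142 CPM in conditioned medium and 26.6 and 26.0 CPM in control medium. In Etv4 and Etv5, shControl-CM replicate 3, at 144 and 44.1 CPM, did not lie in the control range. Spry2, at a mean of 2.89 CPM, was too low for such a ranking.

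**Figure D4:**
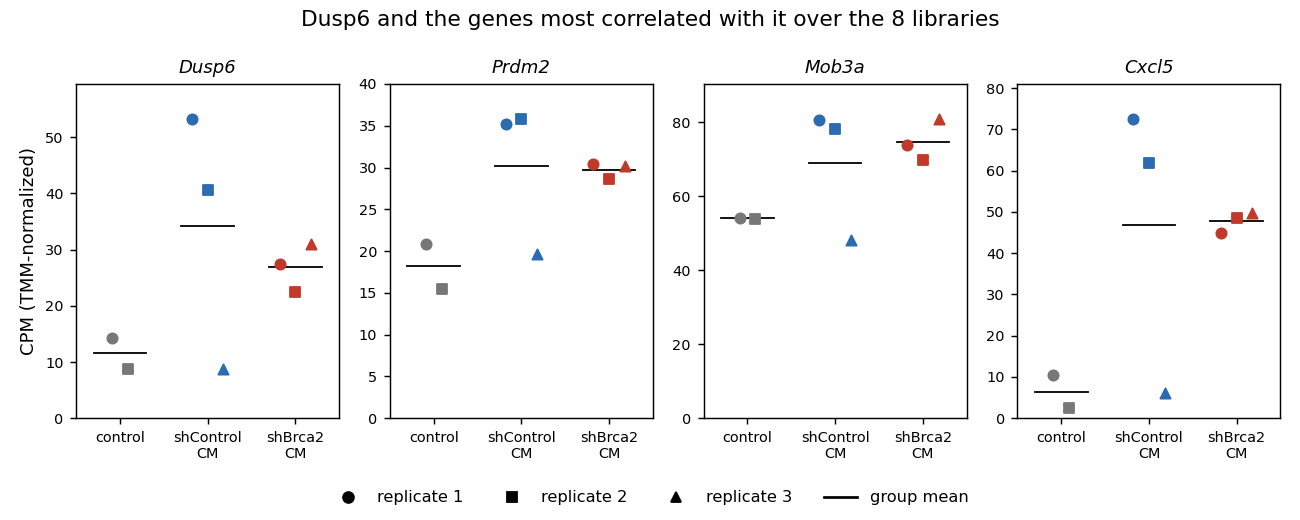
CPM of Dusp6, Prdm2, Mob3a and Cxcl5 (vertical axis from 0, own scale per gene) by group, 1 point per library with its replicate number as shape and the group mean as a line. In each panel shControl-CM replicate 3 (triangle) lies apart from replicates 1 and 2, within or below the range of the control libraries.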

How the data were processed

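RNA of 8 PSC domes in 3 groups, assigned by sample titles and recorded treatment, was sequenced by MARS-seq, which tags mRNA 3′ ends. The authors deposited raw counts per gene. Per the submitters' processing notes these came from bcl2fastq, cutadapt, STAR 2.4.2a, HTSeq and DESeq2 on mm10, while the annotation, the choice of the 12160 genes and the use of molecular identifiers are not given in the sources used here. In the table, 1 column matched no sample and was not used.

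For each comparison the libraries of its groups were fitted on their own in R 4.3.3 with edgeR 4.0.16 (TMM, genes with at least 10 counts over the libraries fitted, quasi-likelihood test, Benjamini-Hochberg adjustment over all genes tested). Following the study's thresholds, called genes had an adjusted p below 0.1, a mean normalized count above 5 and a log2 fold change beyond 0.5 in size. SEs and 95% intervals come from the same fit. Replicates are separate domes of a single line, so p-values measure the spread between domes. Alternatives were DESeq2 1.42.0, other scaling, filters and thresholds, all 3 groups in a single fit, a replicate block, libraries thinned to the smallest total and each library left out in turn.

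The members, lists, tests and alternatives were chosen with earlier results of these data known. Named genes were all members, up to 3 called genes per list and comparison with the smallest adjusted p, and the 3 genes most correlated with Dusp6, Etv4 and Spry2 (mean of at least 5 CPM). Dusp8, Spred2, Braf, Krt19, Nrg1, Pdgfb and Epha4 were named outside this rule, after their values were seen, and some genes that the rule names are not reported here.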

Additional observations from a re-analysis of the deposited data

How the results depend on the processing

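Between the conditioned media, the number of members called was 0 in every setting but the fit without shControl-CM replicate 1, so that it ranged from 0 to 1 with single libraries left out. With shControl-CM against control medium, 5 members were called, 2 at an adjusted p under 0.05 and a log2 fold change over 1, 3 in thinned libraries and 3 to 6 with single libraries left out (3 without shControl-CM replicate 2 or either control library). With shBrca2-CM against control medium, 5 were called, and 3 in thinned libraries, where Dusp1 and Spry1 were lost. No member called in a comparison changed direction in any setting. The replicate numbers carry no stated meaning, and same-numbered libraries were not treated as paired in the main fits. The correlations of their deviations from the group means over 6224 genes were -0.07, 0.03 and 0.16 between the conditioned media. Against control medium they were 0.15 and 0.005 with shControl-CM, and 0.04 and -0.01 with shBrca2-CM. These values do not settle whether the domes were paired. With the replicate block, 0, 6 and 5 members were called between the conditioned media, with shControl-CM and with shBrca2-CM against control medium, and Spred1 was gained with shControl-CM (-0.89, edgeR adjusted p = 0.0234). Against control medium this fit also drops replicate 3 of the conditioned medium, which has no control partner, and Spred1 was at -0.89 without that library and without a block too. Counts over all genes moved more. Between the conditioned media 346 genes were called, 131 at the stricter thresholds, 128 to 175 with 1 of the shBrca2-CM libraries or shControl-CM replicate 2 left out, and 982 without shControl-CM replicate 1. With shControl-CM against control medium 4571 were called, 2434 at the stricter thresholds, 2922 in thinned libraries, and 1925 and 2306 without control replicate 1 and 2, and with shBrca2-CM 4679 and 2269 at the stricter thresholds. At the stricter thresholds the pathway list genes called went from 5 to 2, from 34 to 15 and from 35 to 19 in the same order of comparisons. Scaling by total counts moved the median log2 fold change of all genes from 0.03 to 0.14 between the conditioned media and from -0.10 to -0.21 with shControl-CM. Where 1 library of a group remained, it was assumed to vary like the other group. Depth limits Spry1, Spry2, Dusp4 and Dusp5 most, which had 15 or fewer counts in each conditioned library.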

Other observations

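Epha4, an ephrin receptor on the list of ERK-responsive genes, had 0 counts in all 6 conditioned medium libraries, 0 of 6835722 in all, which allows up to 0.439 CPM, and 23 and 15 counts in the control libraries, or 3.76 CPM of their summed total. It was named after its values were seen, and its mean normalized count of 4.19 with shControl-CM and 3.76 with shBrca2-CM was under the 5 a call needs (edgeR adjusted p = 0.00955 and 0.00194). With any single conditioned medium library left out of its comparison, or with the replicate block, it was called lower. Leaving out a library at 0 raises the mean normalized count by construction, so these calls are no separate finding.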
